A study of Mus musculus with 4 samples.

Results

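Chemokines and their receptors were followed in kidney RNA at day 3 after bilateral renal ischemia/reperfusion (bI/R), in mice with and without tubular Apela, the gene of the peptide hormone ELA. They were taken as the protein-coding genes of the deposited table whose symbol begins with Ccl, Cxcl, Cx3cl, Xcl, Ccr, Cxcr, Cx3cr, Xcr or Ackr followed by a number. The rule found 67 of the 54078 features of the table, with 62 different symbols, of which 44 features were ligands and 23 were receptors. The rule uses symbols and gene types, not expression values.

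The knockout mice, Apela Ksp KO, carried floxed Apela alleles and a Cre recombinase driven by the Ksp-cadherin promoter, which is active in renal tubular epithelial cells, so that other kidney cells kept the gene. The controls were Apela flox/flox littermates without Cre, called WT. All mice were adult males, described in the labels as C57BL/6 x 129S4/SvJae and in the study's methods as C57BL/6, and in all of them both kidneys were clamped for 30 min. Each library was a pool of RNA from 3 mice with 2 pools per group, so n = 2 counts pools and a p-value measures only the spread between pools. Uninjured kidneys were not analysed here, so no level could be set against a kidney without injury. The series design text gives adipose tissue as the source, whereas kidney is given by the title, the labels and the paper. Proximal tubule genes, 8 in number, had a summed FPKM of 2255 to 4022 in the 4 pools.

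Chemokines are small secreted proteins that guide leukocytes along a gradient by binding receptors coupled to inhibitory G proteins. They are grouped by the spacing of their first cysteines into CC (Ccl), CXC (Cxcl), CX3C (Cx3cl) and XC (Xcl) ligands, and atypical receptors (Ackr) bind and remove ligand without signalling through G proteins. In the kidney injured by ischemia, tubular and endothelial cells as well as infiltrating leukocytes make chemokines, and CXC ligands of the neutrophil receptor Cxcr2 and CC ligands of the monocyte receptor Ccr2 are among the best known of them. Many inflammatory chemokine genes are switched on by NF-kB, a transcription factor activated by tumour necrosis factor, interleukin 1 and Toll-like receptors, and those that bind Cxcr3 are induced by interferon-gamma.

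The sequences in which such factors are looked for are shown for the 6 tested members whose windows hold the letters searched. Promoter windows, from 250 bases before to 50 bases after the transcription start, were taken from RefSeq (GRCm38.p6) and matched 46 of the 62 symbols and 24 of the 32 members that could be tested. Matching was by symbol, so the window counted for Ccl21a lies on chromosome 4 and is not that of the tested scaffold feature. Among the tested members without a window, which were not searched, were Ccl5, Ccl2, Ccl7, Ccl4, Cxcl5, Cxcl16 and Cxcl17. Both strands were searched for a kappaB form, which is GGG, any 2 bases and then TTTCC or TTCCC, and for the core of the interferon-stimulated response element (ISRE), which is GAAA, any 2 bases and then GAAA. Capitals mark the matched letters, and each window is written 5′ to 3′ on the strand of its gene. Cxcl10 is shown at chr5:92348840-92349139 (minus strand), Cxcl1 at chr5:90890995-90891294 (plus), Cxcl2 at chr5:90903649-90903948 (plus), Ccl20 at chr1:83116516-83116815 (plus), Ccl9 at chr11:83578587-83578886 (minus) and Cxcl14 at chr13:56296502-56296801 (minus).
Cxcl10: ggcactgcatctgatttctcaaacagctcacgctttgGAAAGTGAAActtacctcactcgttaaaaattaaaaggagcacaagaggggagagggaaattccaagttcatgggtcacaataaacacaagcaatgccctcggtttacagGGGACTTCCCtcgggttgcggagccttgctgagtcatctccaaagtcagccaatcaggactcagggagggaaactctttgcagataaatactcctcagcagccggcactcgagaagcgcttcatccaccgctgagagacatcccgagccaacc
Cxcl1: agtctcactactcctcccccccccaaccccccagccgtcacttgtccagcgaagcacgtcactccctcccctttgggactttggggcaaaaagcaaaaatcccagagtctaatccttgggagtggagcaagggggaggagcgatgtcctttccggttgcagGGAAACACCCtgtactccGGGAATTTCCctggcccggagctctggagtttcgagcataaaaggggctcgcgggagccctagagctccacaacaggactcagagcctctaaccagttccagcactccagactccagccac
Cxcl2: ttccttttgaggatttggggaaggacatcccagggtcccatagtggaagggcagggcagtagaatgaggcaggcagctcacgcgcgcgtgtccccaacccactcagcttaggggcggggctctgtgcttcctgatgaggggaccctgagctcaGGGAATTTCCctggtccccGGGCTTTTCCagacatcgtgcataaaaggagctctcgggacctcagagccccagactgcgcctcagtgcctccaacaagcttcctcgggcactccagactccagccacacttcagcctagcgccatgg
Ccl20: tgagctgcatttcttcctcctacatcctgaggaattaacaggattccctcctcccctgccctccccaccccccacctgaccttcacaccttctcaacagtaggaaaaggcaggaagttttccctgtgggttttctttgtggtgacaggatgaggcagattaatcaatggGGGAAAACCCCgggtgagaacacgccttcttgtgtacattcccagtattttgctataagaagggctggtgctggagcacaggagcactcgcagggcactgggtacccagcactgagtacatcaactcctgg
Ccl9: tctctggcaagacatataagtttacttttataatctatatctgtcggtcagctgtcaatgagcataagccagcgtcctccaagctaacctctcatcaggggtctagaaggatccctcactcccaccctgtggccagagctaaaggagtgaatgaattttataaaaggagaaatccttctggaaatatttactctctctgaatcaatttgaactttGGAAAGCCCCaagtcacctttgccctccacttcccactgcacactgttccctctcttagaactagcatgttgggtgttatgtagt
Cxcl14: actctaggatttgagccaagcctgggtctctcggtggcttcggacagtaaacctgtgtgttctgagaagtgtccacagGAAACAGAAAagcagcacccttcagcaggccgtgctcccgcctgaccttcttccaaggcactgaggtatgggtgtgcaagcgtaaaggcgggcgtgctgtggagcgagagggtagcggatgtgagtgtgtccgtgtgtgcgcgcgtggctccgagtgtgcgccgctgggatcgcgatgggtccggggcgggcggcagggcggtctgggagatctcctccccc

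The Cxcl10 window was the only member window other than that of Ccl19 with both kinds of match, an ISRE form at -213 and a kappaB form at -103, counted in bases from the start to the first base of the match. Cxcl1 and Cxcl2, which lie side by side on chromosome 5, each had a pair of kappaB forms within 100 bases of the start, at -89 and -71 and at -97 and -78. The Ccl20 window held overlapping kappaB forms on the opposite strand at -81 and -80, the Ccl9 window held 1 on the opposite strand at -35, and the Cxcl14 window held an ISRE form at -172 and no kappaB form. Across all members, 10 of 53 windows (18.9%) held a kappaB form and 3 of 53 (5.66%) an ISRE form. Of all 32851 windows in the RefSeq table, 3.24% held a kappaB form and 3.44% an ISRE form. These matches describe letters only, and binding of any factor was not measured.

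**Figure D1:**
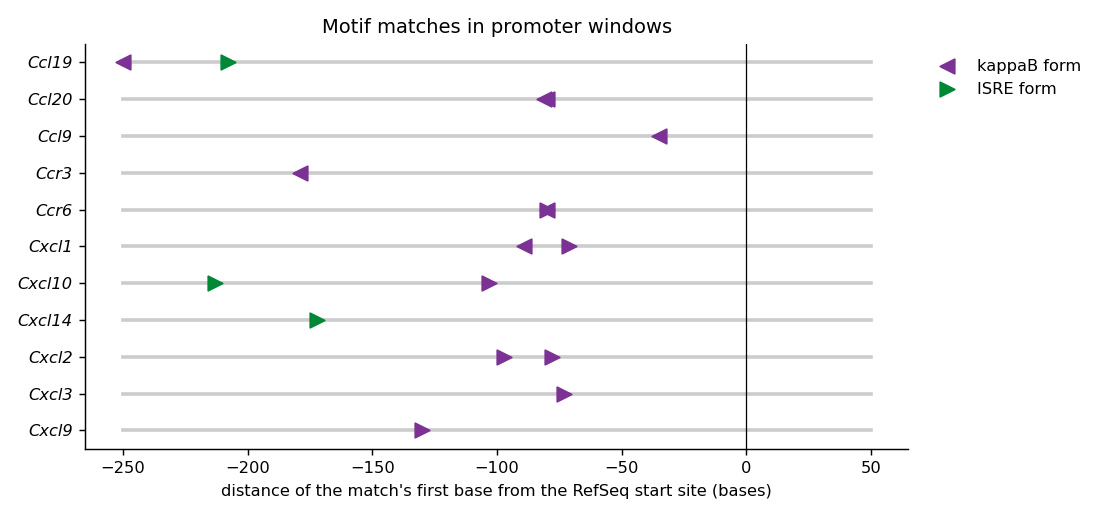
Positions of kappaB forms (purple) and ISRE forms (green) in the promoter windows of the 11 members with a match, as the distance in bases from the RefSeq start, with triangles that point right or left for the plus or minus strand of the gene. The matches of Cxcl1, Cxcl2, Cxcl3, Ccl20 and Ccr6 lie between -97 and -71, and Cxcl10 and Ccl19 hold both forms.

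Levels are given as FPKM, fragments scaled by gene length and library total, which can be compared between genes. Members whose mean over the 4 pools reached 0.5 FPKM were tested with limma on log2(FPKM + 0.5), with Benjamini-Hochberg adjustment over all 15414 genes that passed this filter. The added 0.5 makes log2 fold changes smaller than those of the FPKM for low genes, and with 2 pools per group the smallest two-sided p of an exact permutation test is 0.333. Apela itself stood at 5.27 and 4.57 in WT and at 0.536 and 0.245 in KO pools, as the labels state. Its log2 fold change was -2.62 (limma, standard error 0.22, Benjamini-Hochberg adjusted p = 0.466), and no tested gene had a smaller adjusted p than 0.466. Between 16045724 and 16927742 reads per pool fell on genes, and the pools of a group differed by more than sampling noise, with a mean chi-square per gene of 34.6 for WT and 26.9 for KO. A member listed with 3 reads or fewer in a pool was taken to be at the limit of detection there.

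Of the 67 members, 32 passed the filter, 25 ligands and 7 receptors, and 24 of them had a mean FPKM of at least 1. None of the 32 had an adjusted p-value under 0.05 by limma with Benjamini-Hochberg adjustment, and neither did any other gene (0 of 15414, 0%). The deleted gene Apela was among the genes not called, so a lack of calls here does not show a lack of change. The study did report differentially expressed genes for this comparison at the same threshold, with a tool that its methods do not name. The adjusted p-values of the members lay between 0.757 and 0.982. At an unadjusted p under 0.05, limma called 4 members, Cxcl10, Ccl5, Ccl12 and Ccl20, all lower in the KO pools. Of all genes tested, 974 were called at that level, 3.03% lower and 3.29% higher. In either direction, 15 members and 1720 genes were called without WT replicate 1, 8 and 727 without KO replicate 1, 4 and 687 without WT replicate 2, and 2 and 779 without KO replicate 2. The median log2 fold change of the 32 members, KO minus WT, was -0.41, beside 0.007 for all genes tested. In the KO pools 22 members were lower and 10 higher, while 48.6% of all genes tested were lower.

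WT replicate 2 stood apart from the other 3 pools in the level of most members. It was the highest pool for 23 of the 32 tested members (71.9%), beside 29.1% of all genes tested, and it was above WT replicate 1 for 29 of the 32 (90.6%), beside 49.2% of all genes tested. The median log2 difference between WT replicate 2 and WT replicate 1 was 0.91 for the members and -0.005 for all genes, and that between KO replicate 2 and KO replicate 1 was 0.07 and 0.004. For 23 of the 32 members (71.9%) the WT pools differed from each other by more than the groups differed, beside 59.5% of all genes tested. Without WT replicate 2 the members' median log2 fold change was -0.05, and the other pools, left out in turn, gave -0.32 to -0.68. KO replicate 2 was the lowest pool for 15 of the 32 members (46.9%), beside 23.7% of all genes tested.

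**Figure D2:**
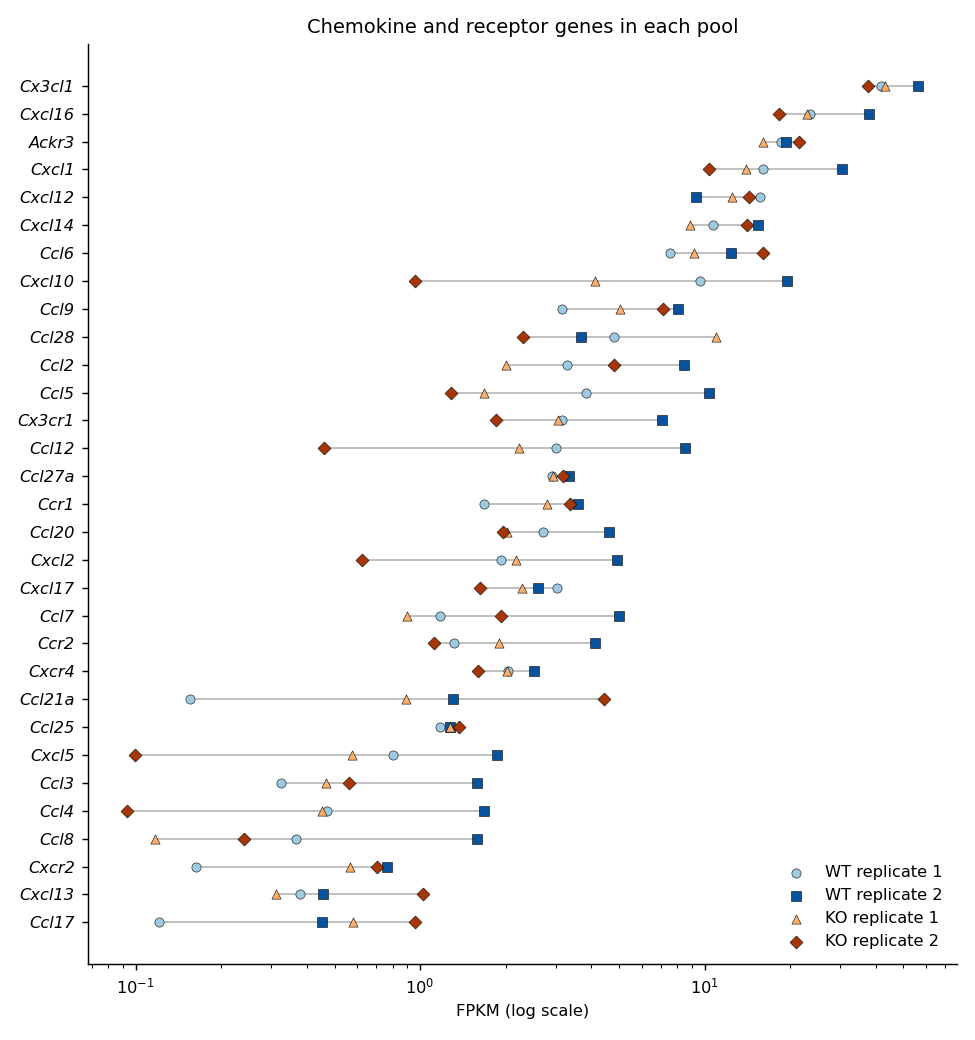
FPKM (log scale) of 31 of the 32 tested members in each of the 4 pools, ordered by mean, with 1 marker per pool and a line that spans the 4 values. The dark blue squares of WT replicate 2 are the rightmost marker for 22 of those shown, and the levels run from Cx3cl1 at 37.5 to 56.2 down to members under 1.

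The most abundant member was Cx3cl1 (fractalkine), a ligand held on the cell surface by a mucin-like stalk and known to be made by endothelial and epithelial cells. Its gene lies on chromosome 8 from 94772009 to 94782427. It stood at 41.7 and 56.2 in WT and at 43.1 and 37.5 in KO pools, so that the groups overlapped (log2 fold change -0.27, standard error 0.19, and -0.05 without WT replicate 2). Cxcl16, the other ligand with a membrane stalk, which binds Cxcr6, lies on chromosome 11 from 70453983 to 70459984. Its levels were 23.5 and 37.7 in WT and 22.9 and 18.2 in KO mice, with both KO pools below both WT pools but WT replicate 1 and KO replicate 1 close to each other. On the log2 scale the difference was -0.53 (standard error 0.27), and -0.20 without WT replicate 2. Exons of Cxcl16 overlap those of Zmynd15 on the opposite strand, and Zmynd15 had an FPKM of 5.08 and 7.84 in WT and 5.21 and 3.20 in KO pools. The strandedness of the counting is not stated in the sources used here, so reads of the pair could not be told apart where they overlap.

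The ligands of Cxcr2 draw neutrophils, and 3 of the 4 listed were tested. Cxcl1 was the highest of them, with an FPKM of 16.0 and 30.5 in WT and of 14.0 and 10.4 in KO pools. Its 4 pools did not overlap between groups, and the means were 23.3 ± 10.2 in WT and 12.2 ± 2.51 in KO mice (SD, n = 2 pools). The log2 fold change was -0.85 (limma, standard error 0.34, Benjamini-Hochberg adjusted p = 0.786), and -0.40 without WT replicate 2.
Cxcl2, whose gene lies from 90903871 to 90905938 on chromosome 5, downstream of Cxcl1 at 90891241 to 90893115, had an FPKM of 1.93 and 4.92 in WT and 2.17 and 0.625 in KO mice. The groups overlapped, since KO replicate 1 was above WT replicate 1. The log2 fold change was -1.07 (standard error 0.58), -0.49 without WT replicate 2 and -0.44 without KO replicate 2. Of the 50-base windows of the Cxcl2 transcripts, 5.84% are shared with Cxcl3. Cxcl5, another gene of this cluster, ranged from 0.0992 in KO replicate 2, where it had 3 reads, to 1.87 in WT replicate 2 and did not overlap between groups (-1.13, standard error 0.45, and -0.70 without WT replicate 2). Cxcl3 was not tested and had between 3 and 11 reads in each pool. All 3 tested ligands of Cxcr2 were highest in WT replicate 2 and lowest in KO replicate 2, and their median log2 fold change was -1.07, or -0.49 without WT replicate 2.

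Of the ligands of Cxcr3, a receptor of activated T and NK cells, Cxcl10 (chromosome 5, 92346638 to 92348889, minus strand) had the largest difference of any tested member. The WT pools had an FPKM of 9.64 and 19.5 and the KO pools 4.11 and 0.957, from 349, 757, 155 and 35 reads. Both KO pools lay below both WT pools, and the KO pools differed from each other 4.30-fold, more than the WT pools, which differed 2.03-fold. Group means were 14.6 ± 7.0 in WT and 2.54 ± 2.23 in KO mice (SD, n = 2 pools), 5.75-fold higher in WT. This gave a log2 fold change of -2.46 (limma, standard error 0.64, Benjamini-Hochberg adjusted p = 0.757).
Leaving out single pools gave values from -3.29 without KO replicate 1 to -1.63 without KO replicate 2, and -1.97 without WT replicate 2. An exon of Cxcl10 overlaps the opposite-strand gene Art3, which had an FPKM of at most 0.601 in any pool. Cxcl9, the other protein-coding ligand of Cxcr3 in the table, was under the filter, with 12 and 48 reads in WT and 12 and 7 in KO pools. Its highest pool was thus WT replicate 2, and WT replicate 1 and KO replicate 1 had equal reads. Cxcr3 itself was not tested and had 8 and 9 reads in WT and 1 and 5 in KO mice.

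The 4 ligands of Ccr2, the receptor by which monocytes leave the marrow and enter tissue, lie together on chromosome 11 between Ccl2 and Ccl1 (82035571 to 82305690). All 4 were tested, all were highest in WT replicate 2, and all were lower on average in KO mice (median log2 fold change -0.86), while without WT replicate 2 the median was -0.20 and 3 of the 4 were lower. Summed, they came to 7.82 and 23.6 in WT and to 5.24 and 7.44 in KO pools, so that the sum of WT replicate 1 lay close to the KO values.
Ccl2 (MCP-1), the main monocyte chemoattractant, had an FPKM of 3.28 and 8.43 in WT and 2.00 and 4.82 in KO mice, with overlapping groups. Its log2 fold change of -0.67 (standard error 0.55) came to -0.05 without WT replicate 2. Ccl7, next to it, had 1.17 and 5.01 in WT and 0.896 and 1.92 in KO mice (-0.72, standard error 0.64), and its sign turned to 0.14 without that pool.
Ccl12, a mouse ligand of Ccr2 at 82101845 to 82103400, had an FPKM of 3.01 and 8.55 in WT and 2.23 and 0.459 in KO mice. Its pools did not overlap between groups, but KO replicate 2 rested on 4 reads and the KO pools differed 4.85-fold. On the log2 scale the fold change was -1.80 (limma, standard error 0.68, Benjamini-Hochberg adjusted p = 0.785). It stayed from -2.56 to -1.05 when single pools were left out, the latter without KO replicate 2. Ccl8 ranged from 0.117 in KO replicate 1 to 1.59 in WT replicate 2, with 3 reads or fewer in every pool but the latter (-0.99, standard error 0.49, and -0.36 without WT replicate 2).

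A group of 5 CC ligands of monocytes, macrophages and T cells lies in another stretch of chromosome 11 (83525778 to 83664683). Ccl5 (RANTES), which T and NK cells as well as tubular cells are known to make, is the outermost gene of the stretch, from 83525778 to 83530518 on the minus strand. The WT pools had an FPKM of 3.82 and 10.4 and the KO pools 1.68 and 1.28, from 59, 172, 27 and 20 reads. The groups did not overlap, the WT pools differed 2.72-fold and the KO pools 1.31-fold. The log2 fold change was -1.80 (limma, standard error 0.47, Benjamini-Hochberg adjusted p = 0.757), and leaving out single pools gave -2.47 to -1.13.
The neighbouring genes had smaller differences. Ccl6, which myeloid cells make, had an FPKM of 7.56 and 12.4 in WT and 9.16 and 16.1 in KO mice, and Ccl9 had 3.15 and 8.09 in WT and 5.05 and 7.12 in KO mice. Both overlapped between groups, with log2 fold changes of 0.31 (standard error 0.35) and 0.22 (standard error 0.45), or 0.65 and 0.83 without WT replicate 2. Ccl3 and Ccl4, the macrophage inflammatory proteins MIP-1 alpha and beta, had FPKM between 0.0933 and 1.67 and at most 21 reads in a pool. Ccl4 did not overlap between groups (log2 fold change -0.95, standard error 0.50, and -0.37 without WT replicate 2), but it had 5 reads in each of WT replicate 1 and KO replicate 1 and 1 read in KO replicate 2. Ccl3 overlapped (-0.37, standard error 0.49), with a sign for Ccl3 that turned to 0.30 without WT replicate 2. The median log2 fold change of the 5 ligands was -0.37, and it turned to 0.30 without WT replicate 2 and to -1.05 without WT replicate 1.

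Ccl20, the ligand of Ccr6 that epithelial cells make under inflammatory signals, lies on chromosome 1 from 83116766 to 83119167. Its FPKM values were 2.71 and 4.62 in WT and 2.02 and 1.95 in KO mice, with nearly equal KO pools and no overlap between groups. The log2 fold change was -0.71 (limma, standard error 0.26, Benjamini-Hochberg adjusted p = 0.785), and -0.37 without WT replicate 2. Its receptor Ccr6 had at most 3 reads in any pool.

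Cxcl12, the ligand of Cxcr4 and Ackr3, was the only tested member with its highest level in WT replicate 1 and its lowest in WT replicate 2, with an FPKM of 15.7 and 9.36 in WT and 12.5 and 14.3 in KO mice (log2 fold change 0.13, standard error 0.26). Cxcl14 had 10.7 and 15.4 in WT and 8.87 and 14.1 in KO mice (-0.19, standard error 0.29), with replicate 1 below replicate 2 in both groups. Cxcl17, a mucosal chemokine, had 3.03 and 2.60 in WT and 2.28 and 1.62 in KO mice from 20 to 37 reads. Its log2 fold change was -0.45 (standard error 0.19), -0.64 without KO replicate 1 and -0.25 without KO replicate 2. Cxcl17 was 1 of 3 tested ligands with WT replicate 2 below WT replicate 1, and its groups did not overlap.
Ccl28, a mucosal ligand of Ccr10, was another, with 4.80 and 3.68 in WT and 11 and 2.29 in KO mice. The KO pools of Ccl28 differed 4.82-fold and enclosed both WT pools, and the log2 fold change of 0.27 (standard error 0.69) came to -0.76 when KO replicate 1 was left out and to 1.29 when KO replicate 2 was. Ccl27a, which binds the same receptor, had 2.91 and 3.33 in WT and 2.92 and 3.19 in KO mice (-0.02, standard error 0.14). Its level is uncertain, because 45.0% of its 50-base windows also occur in near-identical copies and its exons overlap Il11ra1 on the opposite strand, which had an FPKM of 10.5 to 13.0. Ccl25, the ligand of Ccr9, differed little between pools, with 1.17 and 1.27 in WT and 1.27 and 1.37 in KO mice (0.08, standard error 0.17), and its exons overlap Elavl1 on the opposite strand.

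A feature named Ccl21a on the unplaced scaffold JH584294.1, 1 of several near-identical copies of this lymphoid ligand of Ccr7, had the largest difference in the other direction. Its FPKM was 0.155 and 1.30 in WT and 0.892 and 4.44 in KO mice, but from 1 and 9 reads in WT and 6 and 29 in KO mice. The groups overlapped, and replicate 2 was above replicate 1 in both. The log2 fold change of 1.27 (standard error 0.79) ranged from 0.36 to 2.19 when single pools were left out. The lowest value came from dropping KO replicate 2, the pool with 29 reads, and dropping WT replicate 2 gave 2.00. Cxcl13, which draws B cells, ranged from 0.312 in KO replicate 1 to 1.02 in KO replicate 2. Ccl17, a ligand of Ccr4, ranged from 0.121 to 0.959 and was the only tested member whose KO pools both exceeded the WT pools, from at most 8 reads in a pool.

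**Figure D3:**
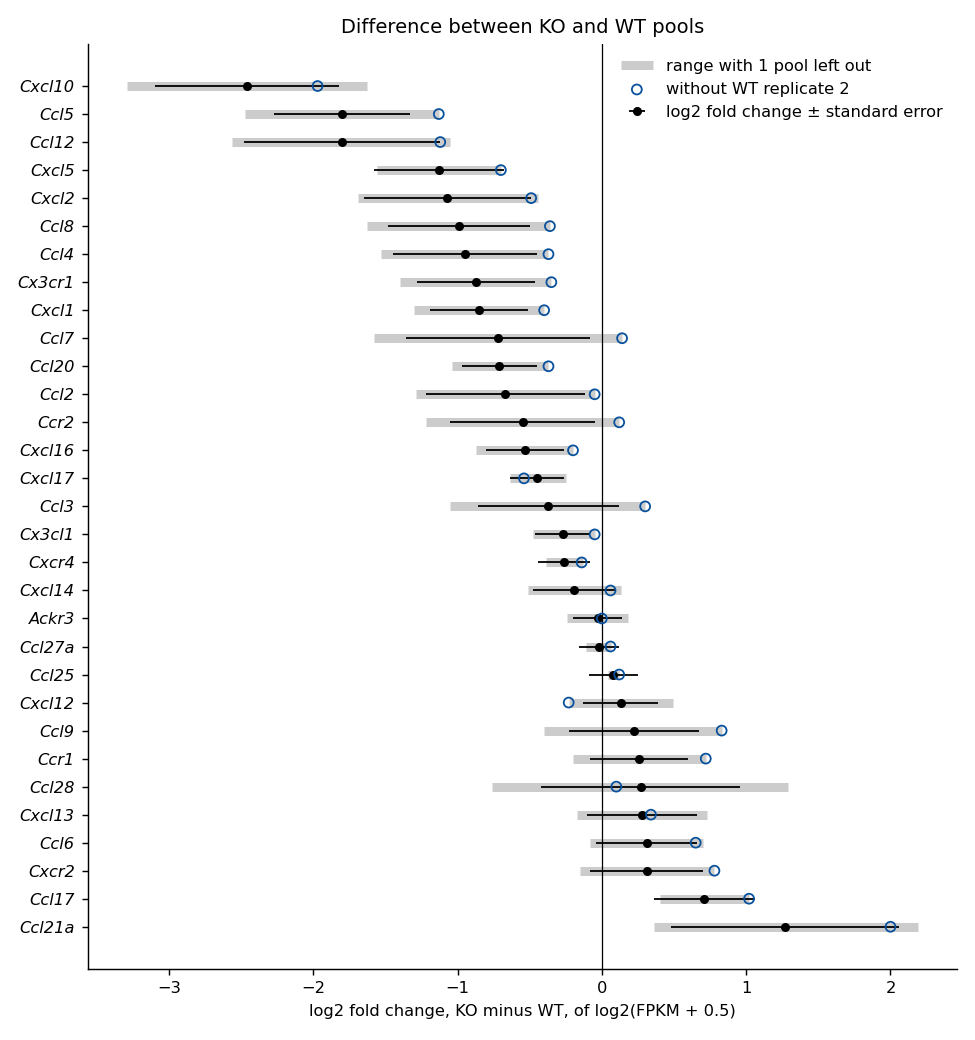
Log2 fold changes (KO minus WT, of log2(FPKM + 0.5)) of 31 of the 32 tested members as points with standard errors, the range with each pool left out in turn as grey bars and the value without WT replicate 2 as open circles. The bars of Cxcl10, Ccl5 and Ccl12 stay below -1, and those of 13 members cross 0.

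Among the receptors, the highest was the atypical receptor Ackr3, which removes Cxcl12 and is known in endothelial and stromal cells. Its FPKM was 18.5 and 19.4 in WT and 16.0 and 21.5 in KO mice, so that the KO pools lay on either side of the WT pools (log2 fold change -0.03, standard error 0.17). The other atypical receptors were under the filter, Ackr2 with 2 to 14 reads and Ackr4 with 5 to 15 reads in a pool, while Ackr1 had no read in any pool.
Cx3cr1, the receptor of Cx3cl1 and a gene of monocytes and resident macrophages, lies on chromosome 9 from 119901616 to 120069879. It had an FPKM of 3.16 and 7.08 in WT and 3.04 and 1.85 in KO mice, without overlap but with WT replicate 1 and KO replicate 1 close to each other. The log2 fold change was -0.87 (limma, standard error 0.41, Benjamini-Hochberg adjusted p = 0.797), and -0.35 without WT replicate 2. Ccr2 had 1.32 and 4.11 in WT and 1.90 and 1.12 in KO mice, with overlapping groups, and its log2 fold change of -0.55 (standard error 0.50) was 0.12 without WT replicate 2.
Ccr1, a receptor of neutrophils and macrophages in the mouse, had 1.67 and 3.59 in WT and 2.79 and 3.37 in KO mice (0.26, standard error 0.34, and 0.72 without WT replicate 2), with both KO pools between the WT pools. The neutrophil receptor Cxcr2 had the same order of pools at a lower level, from 0.163 in WT replicate 1, with 8 reads, to 0.763 in WT replicate 2. Cxcr4 had 2.03 and 2.51 in WT and 2.02 and 1.60 in KO mice (-0.26, standard error 0.18, and -0.14 without WT replicate 2), where WT replicate 1 and KO replicate 1 were nearly equal. The 6 conventional receptors that were tested were all highest in WT replicate 2, with a median log2 fold change of -0.41, or -0.01 without that pool.

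In all, both KO pools lay below both WT pools for 13 of the 32 members (40.6%), beside 18.1% of all genes tested, and above them for 1 (3.12%), beside 19.7%. Among the 13 were Cxcl16, Cxcl1, Cxcl10, Cxcl5, Cxcl17, Ccl5, Ccl12, Ccl20, Ccl4, Ccl8, Cx3cr1 and Cxcr4. With WT replicate 2 left out, 14 members were below (43.8%, beside 32.0% of all genes) and 9 were above (28.1%, beside 34.3%). With WT replicate 1 left out, 24 were below (75.0%, beside 35.9%) and 2 above (6.25%, beside 37.7%).

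**Figure D4:**
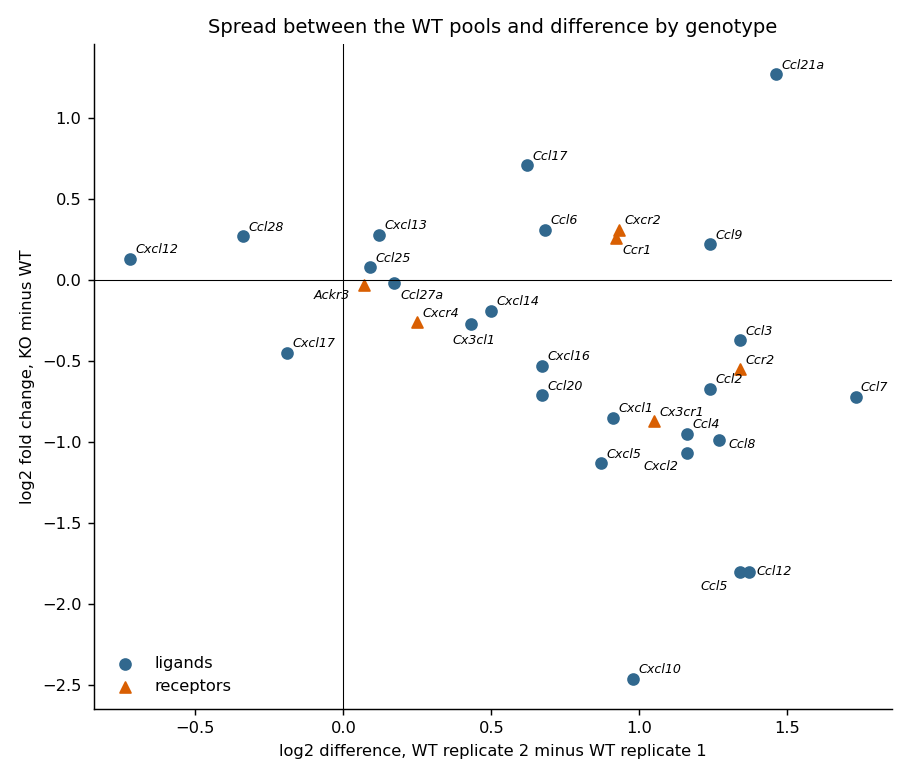
31 of the 32 tested members by the log2 difference between the WT pools (x axis, WT replicate 2 minus WT replicate 1) and the log2 fold change between the groups (y axis, KO minus WT), with ligands as circles and receptors as triangles. Of those shown, 28 lie right of 0 and 21 lie below 0, and the axes share the WT values, so a slope between them has no test.

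The 35 members under the filter were named by class and counted. Of these, 13 had no read in any pool, namely Xcl1, Ackr1, Ccl27b, Cxcl15, Ccl26, Ccl1, Ccl21c, 3 copies of Ccl21b, 2 of Ccl27 and the scaffold copy of Ccl19. The other 22 had a read in some pool, and 23 of the 35 had at most 3 reads in every pool. Those with more were the ligands Cxcl9, Cxcl3, Ccl11 and Ccl24, and the receptors Ccr4, Ccr7, Ccr9, Ccr10, Cxcr3, Cxcr6, Ackr2 and Ackr4. Cxcr6, the receptor of Cxcl16, had 3 and 16 reads in WT and 3 and 4 in KO mice, and Ccr10 had 8 and 14 in WT and 12 and 18 in KO mice.

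Genes that act upstream and downstream of the members were read from lists, by counts and medians only. For comparison with these counts, 48.6% of all genes tested were lower in the KO pools. Of 18 tested inducers and NF-kB genes, 14 were lower in KO pools (median log2 fold change -0.19, and 0.06 with 7 lower without WT replicate 2). By limma none had an adjusted p under 0.05 and 1 had an unadjusted p under 0.05, on the lower side, beside 3.03% of all genes tested. This was Tlr2, a sensor of damage and bacterial lipoproteins, with an FPKM of 6.44 and 12.9 in WT and 5.04 and 1.90 in KO mice (log2 fold change -1.41). Ifng was at 0.0480 in WT replicate 1 and at 0 in the other pools, and Il17a was at 0 in all 4. Among 12 genes known to be induced by interferon-gamma, a list chosen with interferon results of these data known, the 11 tested were all lower in the KO pools without overlap between groups. Their median log2 fold change was -0.92, or -0.82 without WT replicate 2, 10 had an unadjusted p under 0.05 by limma and none an adjusted p under 0.05, beside 3.03% called lower and 18.1% without overlap on that side among all genes, and since the list was chosen with such results known these counts are no independent support. Their summed FPKM was 65.8 and 96.9 in WT and 39.7 and 30.1 in KO mice, and the order of the pools was that of Cxcl10.
Of 9 tested leukocyte adhesion genes 7 were lower, with a median of -0.47, or -0.06 with 6 lower without WT replicate 2. Vcam1, the endothelial and tubular ligand of integrin alpha 4, had an FPKM of 14.6 and 31.0 in WT and 10.5 and 2.59 in KO mice (log2 fold change -1.91, standard error 0.70). Icam1 had 15.0 and 24.5 in WT and 15.8 and 8.22 in KO mice (-0.73, standard error 0.39). The groups overlapped for Icam1, since KO replicate 1 was above WT replicate 1. Of 39 tested genes of receptor signalling 21 were lower and 18 higher, with a median of -0.07. Genes that cleave or bind chemokines, such as Dpp4, which trims their first residues, and Sdc1 and Sdc4, which carry heparan sulfate, gave 7 lower and 4 higher of 11 tested (median -0.15). Other chemoattractants and their receptors gave 7 lower and 6 higher of 13 (median -0.02), with Mif at 257 and 228 in WT and 300 and 293 in KO mice.

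The level of a chemokine gene in whole kidney depends on the cells present, and fewer cells of a type cannot be told apart from less RNA per cell in these pools. The summed FPKM of 20 monocyte and macrophage markers was 262 and 562 for WT and 323 and 306 for KO, highest in WT replicate 2 as for the members. Of these markers 19 were tested and 12 were lower in the KO pools (median log2 fold change -0.40), with a median log2 difference of 0.98 between WT replicate 2 and WT replicate 1, and 12 genes highest in WT replicate 2. Without WT replicate 2 their median was 0.07 with 8 of 19 lower, and without WT replicate 1 it was -0.85. C1qb had an FPKM of 42.0, 103, 41.4 and 33.9 in WT replicates 1 and 2 and KO replicates 1 and 2, and Adgre1 (F4/80) had 3.09, 11.2, 3.89 and 2.43. The other 7 tested markers were higher in the KO pools, and the only marker with an unadjusted p under 0.05 by limma was among them, Cd163, a scavenger receptor, at 0.422 and 0.341 in WT and 0.865 and 1.14 in KO mice (log2 fold change 0.76).
Dendritic cell markers summed to 32.6 and 64.9 in WT and 14.3 and 17.0 in KO mice. Most of this difference lay in H2-Aa, an MHC class II gene, at 24.9 and 54.5 in WT and 7.02 and 9.63 in KO mice. All 5 tested were lower (median log2 fold change -0.46), and without WT replicate 2 the median was -0.18 with 3 lower. Irf8 (-0.15), Zbtb46 (-0.11) and Itgax (-0.46) overlapped between groups, and Batf3 (-0.48) did not. T cell markers summed to 2.10 and 4.18 in WT and 2.02 and 1.76 in KO mice with 2 of 12 tested. NK cell markers summed to 1.27 and 2.19 in WT and 0.795 and 0.756 in KO mice with none tested, and B cell markers to 5.42 and 13.6 in WT and 3.29 and 4.76 in KO mice with 3 of 7 tested, all lower on average. Of the B cell markers tested, Ighm and Cd79b did not overlap between groups. Jchain did, at 1.31 and 4.80 in WT and 1.16 and 3.01 in KO mice, with WT replicate 1 between the KO pools. Neutrophil markers summed to 17.5 and 28.2 in WT and 19.2 and 36.0 in KO mice, and Ly6g, Mpo, Elane and Camp were at 0 in all 4 pools.
Of the 7 tested neutrophil markers 4 were lower and 3 higher in the KO pools (median log2 fold change -0.02), and 3 were highest in WT replicate 2. Without WT replicate 2, 1 of the 7 was lower (median 0.28), and without KO replicate 2, 6 were (median -0.55). Fibroblast markers summed to 183 and 376 in WT and 230 and 313 in KO mice. Proximal tubule markers summed to 4022 and 2255 in WT and 3586 and 3500 in KO mice. All 8 were lower in WT replicate 2 than in WT replicate 1, with a median log2 difference of -0.41, and 4 had their lowest level in WT replicate 2 and 4 in KO replicate 1. Without Pck1, the most abundant of them, the sums were 2251 and 1680 in WT and 1464 and 1906 in KO mice, lowest in KO replicate 1. Distal nephron markers summed to 1860 and 1365 in WT and 1902 and 1550 in KO mice, and all 6 were lower in WT replicate 2 than in WT replicate 1 (median log2 difference -0.54). Cd163 and Pck1 were chosen after their values were seen. The part of these cell markers in the members' differences was not tested.

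**Figure D5:**
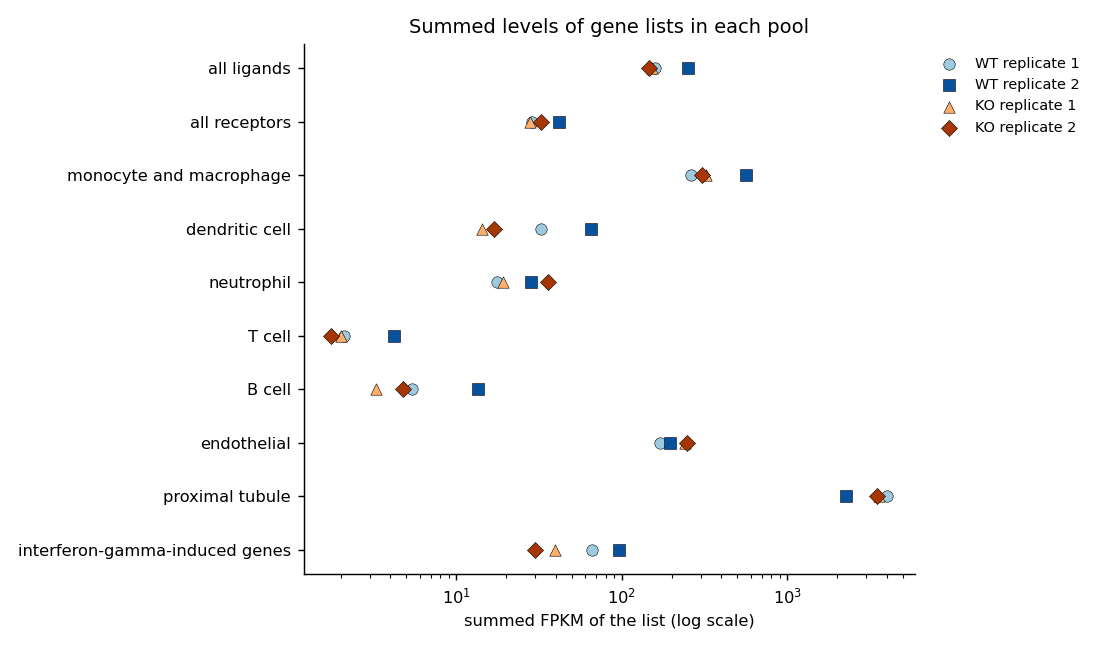
Summed FPKM (log scale) of the member ligands, the member receptors and marker or pathway lists in each of the 4 pools, with 1 marker per pool. WT replicate 2 is highest for ligands (253), receptors (41.7) and monocyte and macrophage markers (562), and lowest for the sum of proximal tubule markers (2255), which without Pck1 is lowest in KO replicate 1.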

How the data were processed

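The authors isolated total kidney RNA from pools of 3 mice, selected poly-A RNA and had it sequenced. The submitters' processing notes name HISAT2 2.0.5, mm10 and GRCm38.p6, and the counting tool, its annotation and its strandedness are not given in the sources used here. The deposited FPKM were divided by the authors by gene length and by a library total. FPKM times gene length gave whole reads, within 0.01 read, for 100% of nonzero values, which gave the reads and the depth printed. The unit is not a count, so limma 3.58.1 (R 4.3.3; lmFit and eBayes with trend, two-sided, no covariates, prior degrees of freedom 2.62) was run on log2(FPKM + 0.5). It took in the 15414 genes whose mean reached 0.5 FPKM, and used Benjamini-Hochberg adjustment and the study's threshold of an adjusted p under 0.05 at any fold change. The fit was run on simulated data, with a check only of the fold changes it estimated. That check does not show how many changed genes the fit would call. Positions are GRCm38, and 66 of 67 members had the same coordinates in GENCODE M21. Members with a mean FPKM of at least 1 are named with every pool, those from 0.5 with their range. The members and lists were chosen with earlier results of these data known. Alternatives were pseudocounts of 0.1 and 1, no filter and a filter of 1, quantile normalization, no trend, a replicate block, voom weights from recovered reads, only protein-coding genes, an unadjusted p and each pool left out. Other computations used Python 3.11.15, numpy 2.4.6 and pandas 2.3.3. The values of 1 tested member and of 1 listed gene are not reported here and enter only counts, sums and medians.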

Additional observations from a re-analysis of the deposited data

How the results depend on the processing

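No member and no other gene had an adjusted p under 0.05 (limma, Benjamini-Hochberg) under any alternative, and the members' adjusted p-values ranged from 0.298 to 1.0 over them. Without adjustment, 974 genes and 4 members had a p under 0.05, and over the alternatives these ranged from 687 to 1720 genes and from 2 to 15 members, the most of both without WT replicate 1. With single pools left out, where a lone pool is assumed to vary like the others, the median log2 fold change ranged from -0.68 to -0.05 for all members, from -0.87 to -0.05 for the ligands and from -0.39 to 0.00 for the receptors. In each case the value nearest 0 was that without WT replicate 2. With all pools and no filter, the median was -0.17 over 54 members, -0.32 over 32 ligands and -0.09 over 22 receptors. With a pool left out, counts of members with the KO pools below the WT pools ranged from 14 to 24 and those above from 2 to 9. Of all genes tested, 32.0% to 35.9% were then below and 34.3% to 37.7% above. Without KO replicate 1, 17 members were below (53.1%, beside 32.9%) and 6 above (18.8%, beside 34.8%). Without KO replicate 2, 18 were below (56.2%, beside 32.3%) and 2 above (6.25%, beside 35.1%). These counts were an alternative chosen after seeing the data.

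The sign did not turn for 19 of the 32 members under any alternative. It turned for 13 with some pool left out, which gave log2 fold changes of -0.24 to 0.18 for Ackr3, -0.23 to 0.49 for Cxcl12, -0.51 to 0.13 for Cxcl14, -0.08 to 0.70 for Ccl6, -0.40 to 0.83 for Ccl9, -0.76 to 1.29 for Ccl28 and -0.11 to 0.06 for Ccl27a. They were -0.20 to 0.72 for Ccr1, -1.58 to 0.14 for Ccl7, -1.22 to 0.12 for Ccr2, -1.05 to 0.30 for Ccl3, -0.15 to 0.78 for Cxcr2 and -0.17 to 0.73 for Cxcl13. The turns came with WT replicate 2 left out for 7 members, with WT replicate 1 or KO replicate 1 for 4 each and with KO replicate 2 for 3. Ccl27a was also at 0.0046 under quantile normalization, and the cause was not tested. A fit with the replicate number as a block called 0 members and 0 genes, and the main fit had no call for it to remove. Samples of the same number share only a number, as their deviations had a correlation of -0.0017. Precision is limited by 2 pools per group, and members with few reads carry counting error beside it. Even Apela, the deleted gene, was not called, so a lack of calls does not show a lack of change.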

Other observations

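Cxcl11, the third ligand of Cxcr3, is typed as a polymorphic pseudogene in the table and so falls outside the rule. Its reads were 6 and 16 for WT and 5 and 3 for KO, highest in WT replicate 2 and lowest in KO replicate 2, as was Cxcl10. Of 10 markers of endothelial cells, on which leukocytes first arrest, 9 were tested. All 9 were higher on average in the KO pools (median log2 fold change 0.24), while 48.6% of all genes tested were lower. By limma with Benjamini-Hochberg adjustment, none had an adjusted p under 0.05. At an unadjusted p under 0.05 limma called 2, both higher, beside 3.29% of all genes tested called higher. Their summed FPKM was 170 and 195 in WT and 242 and 249 in KO mice. Platelet and red cell genes summed to 121 and 132 in WT and 67.1 and 179 in KO mice, and among them Pf4, a CXC chemokine of platelets whose symbol the rule does not take, had an FPKM of 7.16 and 13.9 in WT and 6.72 and 14.3 in KO mice. Of 7 tubular injury genes, 4 were lower and 3 higher on average in the KO pools. By limma, 1 was lower and 2 were higher at an unadjusted p under 0.05, beside 3.03% and 3.29% of all genes tested. None had an adjusted p under 0.05. Lcn2 (NGAL) had an FPKM of 133 and 95.2 in WT and 249 and 273 in KO mice, and Krt20 had 35.6 and 36.8 in WT and 60.0 and 61.0 in KO mice. Both had the KO pools above the WT pools without overlap, as had 19.7% of all genes tested. Vcam1 was the gene on the lower side. Chil3, a monocyte and macrophage marker, had 7.55 and 8.01 in WT and 8.28 and 30.7 in KO mice, unlike most of its list. Lcn2, Krt20 and Chil3 were chosen after their values were seen.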
